A study of Mus musculus with 50 samples.

Results

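The posterior Hoxa genes are the 5′ genes of the HoxA cluster. Hoxa7, Hoxa9, Hoxa10, Hoxa11, the antisense transcript Hoxa11os and Hoxa13 were taken by name from a table of normalized read counts, 6 of its 18055 genes. Hoxa13 had 3 reads in all 8 libraries together and failed the filter on low values (a mean normalized count of at least 5), so 5 members were tested. Hoxa7 had a mean over 5 in WT itself, while Hoxa9, Hoxa10, Hoxa11 and Hoxa11os passed only through the lines in which they were high. For these 4, higher values in those lines were thus partly built into the filter. For the chromatin data, the locus ran from the lowest to the highest base of the 6 genes with 10 kb on each side, chr6:52154490-52220874 in mm9 (66385 bp). It also contains Hoxa6, Mir196b and the 5′ part of Hoxa3.

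The data came from mouse embryonic stem cells (ESCs) of the line E14 (E14TG2a, called WT) and clones derived from it with CRISPR/Cas9. In Ezh2 KO cells the Ezh2 gene was excised, so EZH1 is the remaining methyltransferase of Polycomb repressive complex 2 (PRC2). In Ezh1/2 dKO cells both genes were excised. The Ezh2 Y726D and Ezh2 R685C lines carry point mutations of Ezh2 made in Ezh1 KO cells, so that every line but WT and Ezh2 KO lacks its own Ezh1. HA-tagged human EZH1 was put back into Ezh1/2 dKO cells for HA ChIP-seq, with untransfected Ezh1/2 dKO cells as the control. All lines were cultured undifferentiated on gelatin with serum, LIF and inhibitors of GSK3β and MEK. RNA was sequenced with 2 libraries per line in all of these but Ezh2 R685C, and each ChIP-seq or ATAC-seq list stands for 1 library. The study calls its samples biological replicates, but no label says which cultures or clones the RNA libraries came from, so their p-values measure the spread between these libraries, which may be technical.

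Hox genes encode homeodomain transcription factors that give body segments their identity along the head-to-tail axis. They are switched on in the order of their position in the cluster, and the posterior members come last, in the trunk, limbs, gut and genital tract. In ESCs they are textbook targets of Polycomb repression: PRC2, whose core subunits are EZH1 or EZH2, EED and SUZ12, methylates lysine 27 of histone H3, up to the trimethylated form H3K27me3. Acetylation of the same residue, H3K27ac, marks active promoters and enhancers and cannot coexist with methylation on one histone tail.

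CG dinucleotides are dense at many PRC2-bound sites of ESCs, and the 3 stretches of 300 bases below show the CG content at 3 chosen places. They are read on the minus strand of mm9 with CG dinucleotides in capitals. The first, chr6:52184397-52184696, is centred on the summit of the SUZ12 peak that the locus held in Ezh1/2 dKO cells, and it lies whole within a coding exon of Hoxa10. The second, chr6:52171336-52171635, covers the H3K27ac summits at Hoxa7 in Ezh1/2 dKO and Ezh2 Y726D cells, and 90 of its bases are coding. It was placed to end next to an annotated untranslated region, so the summits are not at its centre. The last, chr6:52210875-52211174, lies directly upstream of the first annotated start of Hoxa13, the member with nearly no reads.
Hoxa10 SUZ12 summit: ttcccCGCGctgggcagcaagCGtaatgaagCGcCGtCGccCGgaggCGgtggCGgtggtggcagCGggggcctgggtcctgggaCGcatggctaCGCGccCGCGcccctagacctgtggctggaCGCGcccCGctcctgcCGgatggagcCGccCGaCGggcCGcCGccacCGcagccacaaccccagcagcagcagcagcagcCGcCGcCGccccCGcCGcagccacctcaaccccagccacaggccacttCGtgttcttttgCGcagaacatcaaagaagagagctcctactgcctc
Hoxa7 H3K27ac summits: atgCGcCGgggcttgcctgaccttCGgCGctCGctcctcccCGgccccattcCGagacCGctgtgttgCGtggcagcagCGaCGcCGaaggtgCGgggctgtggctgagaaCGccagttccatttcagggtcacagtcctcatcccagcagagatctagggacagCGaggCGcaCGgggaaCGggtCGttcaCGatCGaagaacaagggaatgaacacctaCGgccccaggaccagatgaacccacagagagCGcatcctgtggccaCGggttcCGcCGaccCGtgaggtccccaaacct
Hoxa13 upstream: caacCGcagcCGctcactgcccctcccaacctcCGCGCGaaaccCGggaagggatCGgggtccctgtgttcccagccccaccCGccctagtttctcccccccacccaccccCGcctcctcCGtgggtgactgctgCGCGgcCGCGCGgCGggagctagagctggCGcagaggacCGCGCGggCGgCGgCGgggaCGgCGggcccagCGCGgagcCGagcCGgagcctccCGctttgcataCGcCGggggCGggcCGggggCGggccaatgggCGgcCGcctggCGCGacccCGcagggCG
The Hoxa10 stretch holds 32 CG dinucleotides and 71.7% G and C. The Hoxa7 stretch holds 27 and 64.3%, and the Hoxa13 stretch 41 and 78.3%. As a reference, 9.52%, 15.5% and 3.46% of 32851 RefSeq promoters of the same length (GRCm38.p6) hold at least as many CG dinucleotides as the Hoxa10, Hoxa7 and Hoxa13 stretches. The median promoter holds 7. Promoters of the members themselves hold 4 (Hoxa9), 9 (Hoxa7), 12 and 21 (Hoxa10), 15 (Hoxa11), 41 (Hoxa11os) and 45 (Hoxa13). The 3 stretches therefore do not stand for the starts of the members in general. CG is its own reverse complement, so both strands give the same count.

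The RNA libraries held 3604123 to 5181553 reads and 15660 to 17104 detected genes, and 1 read was worth 0.824 to 1.334 normalized counts. Ezh2 had normalized counts of 598 and 546 in WT and 422 and 613 in Ezh2 Y726D libraries, but 1.05 and 0.968 in Ezh2 KO and 0.824 and 1.78 in Ezh1/2 dKO libraries. Ezh1 was at 227 and 377 in WT, at 372 and 378 in Ezh2 KO, at 14 and 20.4 in Ezh1/2 dKO and at 24.1 and 15.7 in Ezh2 Y726D libraries. Both genes thus followed the labels. Of 12 markers of undifferentiated ESCs, such as Pou5f1, Nanog and Esrrb, 12 were tested and 0 were called in any comparison with WT. Their summed normalized count was 16485 to 17633 in WT and 16730 to 17015 in Ezh2 KO libraries. It was lower in Ezh1/2 dKO (14960 to 15727) and Ezh2 Y726D libraries (14974 to 15923), without overlap. The difference of the sums was not tested.

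The posterior Hoxa genes were nearly silent in WT and Ezh2 KO ESCs. All of them but Hoxa13 were transcribed in both lines without called H3K27me3 at the locus, Ezh1/2 dKO and Ezh2 Y726D. Summed over the 6 genes, normalized counts were 9.34 and 9.63 in the WT libraries and 5.81 to 18.8 in Ezh2 KO, against 441 and 476 in Ezh1/2 dKO and 879 and 1196 in Ezh2 Y726D libraries. Bulk RNA cannot tell more cells that transcribe these genes from more RNA per cell.

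Hoxa7, a factor of the thoracic region, had normalized counts of 5.34 and 6.74 in WT libraries, 10.5 and 5.81 in Ezh2 KO, 65.1 and 85.2 in Ezh1/2 dKO, and 106 and 232 in Ezh2 Y726D libraries. It was the only member with reads in every library. Ezh1/2 dKO and Ezh2 Y726D values lay apart from WT and Ezh2 KO values, and the Ezh2 Y726D libraries differed from each other more than those of any other line.

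Hoxa9, which also maintains blood progenitors, was at 0 and 2.89 in WT and at 1.05 and 0 in Ezh2 KO libraries. It reached 61.0 and 50.6 in Ezh1/2 dKO and 145 and 210 in Ezh2 Y726D libraries. The WT and Ezh2 KO values rest on at most 3 reads per line, and the high and low lines did not overlap.

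Hoxa10, needed for the development of the uterus and the lumbar spine, reached the highest values of the 6 genes. It was at 2.67 and 0 in WT, at 5.23 and 0 in Ezh2 KO, at 226 and 223 in Ezh1/2 dKO and at 424 and 493 in Ezh2 Y726D libraries. Its mean in Ezh1/2 dKO was 224 ± 2.11 (SD, n = 2), so these libraries lay close together, and they did not overlap any other line.

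Hoxa11, which patterns the forearm and the kidney, had 0 reads in both WT libraries, which leaves room for 3 reads over the line, and normalized counts of 2.09 and 0 in Ezh2 KO libraries. It was at 26.4 and 17.8 in Ezh1/2 dKO and at 44.6 and 71.6 in Ezh2 Y726D libraries. Hoxa11os, transcribed from the opposite strand, was at 1.33 and 0 in WT and at 0 in both Ezh2 KO libraries. It was at 98.1 and 63.9 in Ezh1/2 dKO and at 158 and 189 in Ezh2 Y726D libraries. In the GENCODE annotation the exons of the pair share 1038 bases, 38.6% of the exon bases of Hoxa11 and 33.8% of those of Hoxa11os. The study counted reads on RefSeq genes without regard to strand, and the overlap of the RefSeq exons was not measured here. By the study's counting mode, a read that lies wholly in a part shared by both genes is counted for neither, so the counts of both may leave out reads.

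Hoxa13, the most 5′ gene, which forms the digits and the genital tubercle, stood apart from its neighbours. It had 0 reads in WT and Ezh2 KO libraries, 0 and 0.888 normalized counts in Ezh1/2 dKO (1 read), and 1.78 and 0 in Ezh2 Y726D libraries (2 reads). All lines were at or under the floor of 3 reads, so no fold was computed and a change of Hoxa13 was not detectable at this depth.

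**Figure D1:**
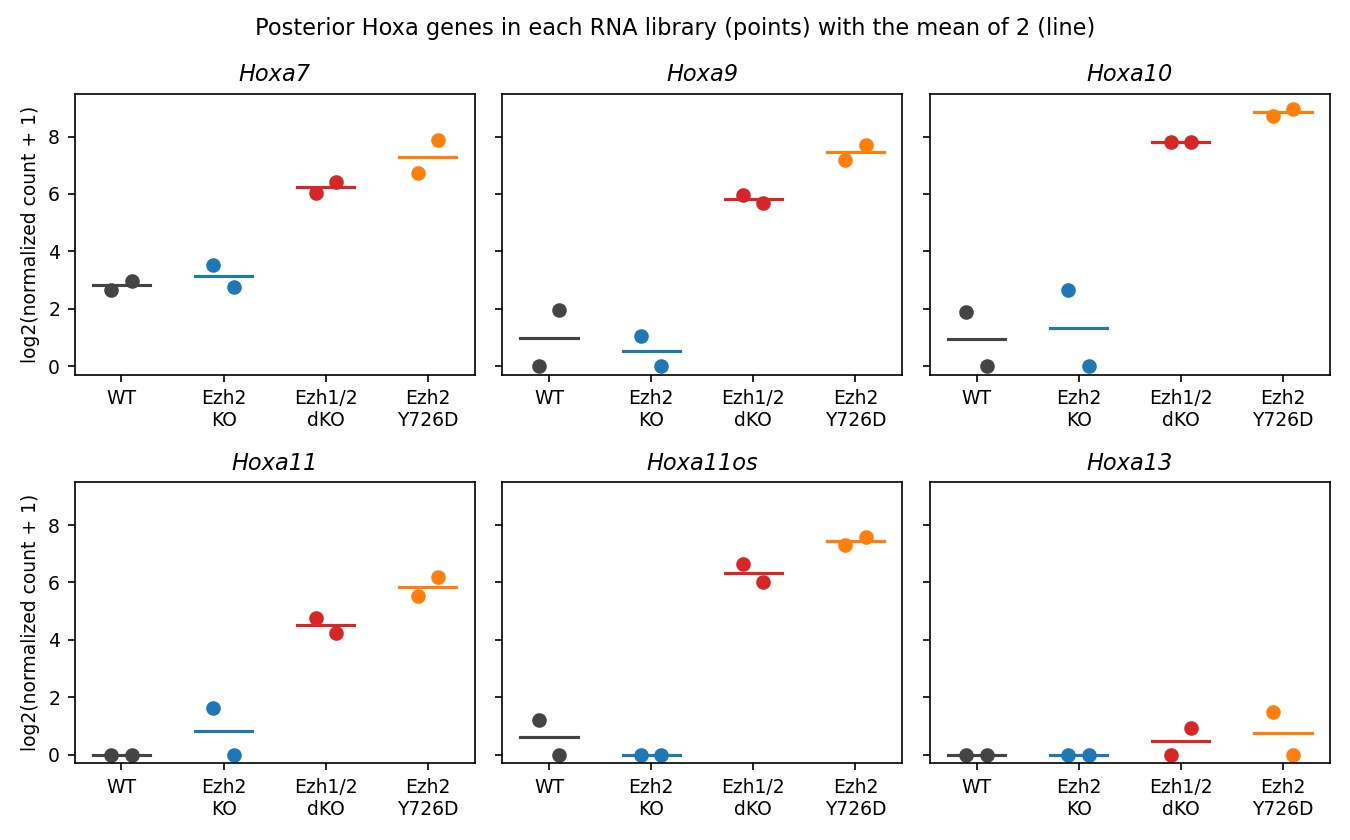
Normalized counts of the 6 posterior Hoxa genes on a log2(count + 1) axis, with each RNA library as a point and the mean of the 2 libraries of a line as a bar. For 5 genes the Ezh1/2 dKO and Ezh2 Y726D libraries sit above all WT and Ezh2 KO libraries, and Hoxa13 stays at or under 1.78 normalized counts throughout.

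In Ezh1/2 dKO against WT, which asks what the loss of both methyltransferases does, all 5 tested members rose. Over all 13872 genes tested, 3.63% were called higher (adjusted p under 0.1 and a log2 fold change of at least 1). All members but Hoxa7 passed the filter only through the lines in which they were high, so their count is no like match for this share. The same limit holds below where Ezh1/2 dKO or Ezh2 Y726D is set against WT or Ezh2 KO. On the log2(normalized count + 1) scale, which understates the change of low genes, limma gave Hoxa10 6.88 ± 0.83 (SE, adjusted p = 0.00845) and Hoxa11os 5.71 ± 0.57 (adjusted p = 0.00585). Hoxa9 rose by 4.84 ± 0.70 (limma adjusted p = 0.0146) and Hoxa7 by 3.43 ± 0.49 (limma adjusted p = 0.0138). For Hoxa11 the fitted 4.50 ± 0.69 (limma adjusted p = 0.0187) depends on the pseudocount, since WT had no reads. The median over the 5 members was 4.84, and that over all genes tested was 0.01.

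As ratios of reads, Hoxa7 was 12.2-fold higher in Ezh1/2 dKO than in WT (95% interval for counting error only, 6.63 to 24.8) and Hoxa9 33.4-fold (11.2 to 164). Hoxa10 was 201-fold higher (55.3 to 1661) and Hoxa11os 146-fold (25.9 to 5796), both against 1 or 2 WT reads, so that the intervals are wide. Hoxa11 was at least 13.2-fold higher, taking the WT floor of 3 reads over the line. The calls rested on having both Ezh1/2 dKO libraries. Without Ezh1/2 dKO replicate 1 or replicate 2, 0 of 5 members were called, with limma adjusted p from 0.102 to 0.185 and from 0.104 to 0.195. The log2 fold changes then were 3.62 to 6.87 and 3.24 to 6.89, and over all genes the calls went from 503 to 7 and 1. The lone sample is assumed in these fits to vary like the other lines.

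In Ezh2 Y726D against WT, which asks whether assembled PRC2 without catalytic activity keeps the genes silent, all 5 tested members rose too, beside 1.66% of all genes called higher. The comparison shares its WT libraries with the one before. Limma gave Hoxa10 7.90 (adjusted p = 0.00574), Hoxa11os 6.83 (adjusted p = 0.00175), Hoxa9 6.48 (adjusted p = 0.0059), Hoxa11 5.85 (adjusted p = 0.00933) and Hoxa7 4.49 (adjusted p = 0.0059), with the same standard errors as above. As ratios of reads, Hoxa7 was 26.3-fold higher (14.5 to 53.2), Hoxa9 104-fold (35.2 to 506), Hoxa10 406-fold (112 to 3361) and Hoxa11os 307-fold (54.7 to 12160). Hoxa11 was at least 33.7-fold higher. The median over the members was 6.48, against −0.01 over all genes, and the 5 calls held without any 1 of the WT and Ezh2 Y726D libraries.

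In Ezh2 KO against WT, with EZH1 as the remaining methyltransferase, 0 of the 5 tested members were called, beside 0.0937% of all genes called higher. An unadjusted limma p under 0.05 was found for 0 members, and edgeR and DESeq2 on the recovered reads called 0. Hoxa7 differed by 0.33 ± 0.49 (limma adjusted p = 0.886) and Hoxa10 by 0.38 ± 0.83 (limma adjusted p = 0.931), smaller than their errors. For Hoxa9, Hoxa11, Hoxa11os and Hoxa13 both lines were at or under the floor of 3 reads. The ratio of reads of Hoxa7 was 1.31 (0.57 to 3.12) and that of Hoxa10 2.25 (0.368 to 23.6), with intervals for counting error only. For Hoxa10 and the members at the floor, a change of several fold was not detectable at this depth. For Hoxa7 the interval leaves room for a rise up to 3.12-fold. Set directly against Ezh2 KO, 5 of 5 members were called higher in Ezh1/2 dKO (3.52% of all genes) and 5 of 5 in Ezh2 Y726D (2.31% of all genes). The median differences over the members were 5.31 and 6.94. In Ezh1/2 dKO against Ezh2 KO, 3 members were called without Ezh1/2 dKO replicate 1 and 3 without replicate 2.

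**Figure D2:**
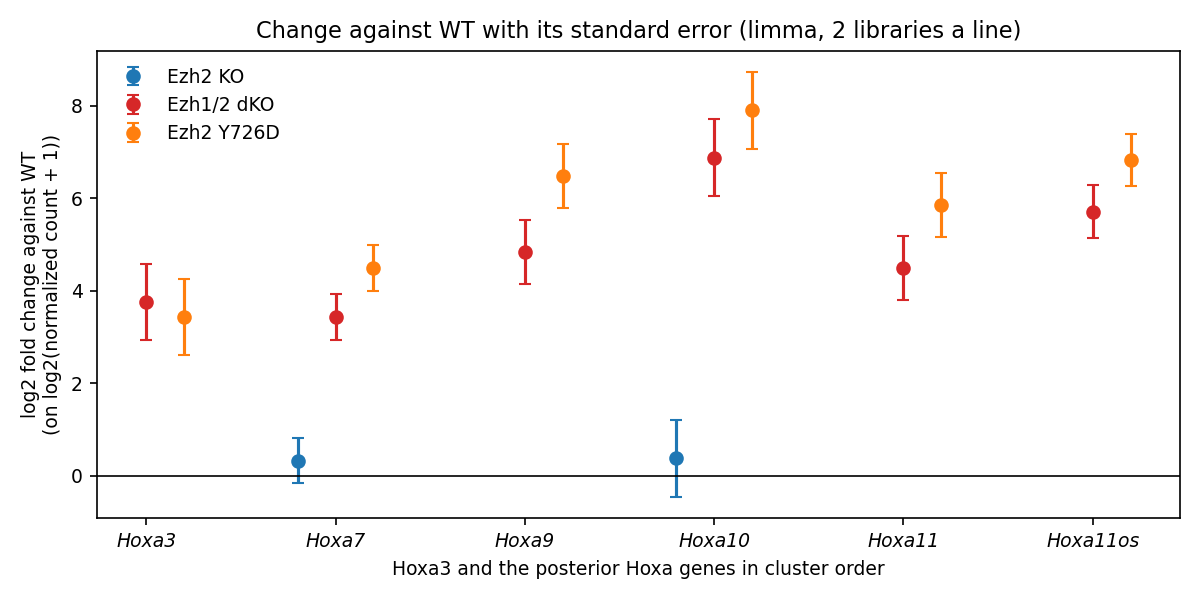
Log2 fold change against WT with its standard error (limma, 2 libraries per line) for Hoxa3 and the 5 tested members in cluster order. Points are left out where both lines were at or under 3 reads, as for Hoxa9, Hoxa11, Hoxa11os and Hoxa3 in Ezh2 KO. Changes in Ezh1/2 dKO and Ezh2 Y726D reach 6.88 and 7.90 at Hoxa10, and Hoxa3 shows 3.75 and 3.43.

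Ezh2 Y726D and Ezh1/2 dKO cells both lack H3K27 methyltransferase activity and differ in whether EZH2 protein is present. They are also different edited clones, so a difference due to EZH2 protein cannot be told apart from a difference between clones. Each of the 5 tested members had both Ezh2 Y726D libraries above both Ezh1/2 dKO libraries, which held for 22.1% of all genes tested. The differences were 1.64 ± 0.70 for Hoxa9, 1.34 ± 0.69 for Hoxa11, 1.12 ± 0.57 for Hoxa11os, 1.06 ± 0.49 for Hoxa7 and 1.02 ± 0.83 for Hoxa10. None passed the test (limma adjusted p from 0.362 to 0.671), beside 0.187% of all genes called higher. An unadjusted limma p under 0.05 was found for 1 member, Hoxa9 (0.043), edgeR called 0 and DESeq2 called 2, Hoxa9 and Hoxa10. The ratios of reads were 2.03 for Hoxa10 (1.82 to 2.26), 2.1 for Hoxa11os (1.76 to 2.52), 2.16 for Hoxa7 (1.79 to 2.61), 2.54 for Hoxa11 (1.82 to 3.60) and 3.11 for Hoxa9 (2.54 to 3.83), whose intervals leave out the spread between libraries. The median difference was 1.12 over the members and −0.02 over all genes. Over 12 tested posterior Hoxb, Hoxc and Hoxd genes the median was −0.62, with 0 called; the 2 medians were not tested against each other.

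To compare levels between genes, normalized counts were divided by the exon length of all GENCODE transcripts of a gene. The reads were counted on RefSeq genes, whose exons can differ, so levels and their order between genes are approximate. For Hoxa11 and Hoxa11os the full exon length includes the shared bases, so their levels may be understated and their places in the order are not fixed. Hoxa10 had the highest level of Ezh1/2 dKO cells, 58.8 and 58.1 normalized counts per exon kb. Hoxa11os (31.9 and 20.8) and Hoxa7 (22.6 and 29.6) followed with overlapping values, then Hoxa9 (17.5 and 14.5) and Hoxa11 (9.81 and 6.60). In Ezh2 Y726D, Hoxa10 was again highest at 110 and 129. Hoxa7 (36.9 and 80.5), Hoxa11os (51.4 and 61.5) and Hoxa9 (41.6 and 60.2) overlapped each other, and Hoxa11 was at 16.6 and 26.6. Hoxa13 had at most 0.723 normalized counts per exon kb in any library.

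The 5 genes whose log2 profile over the 8 libraries was most like the mean of the tested members, among 13867 genes, were Kcnj3 (Pearson r = 0.9927), a potassium channel subunit, Chst8 (r = 0.9903), a sulfotransferase, Hoxd13 (r = 0.983), Susd4 (r = 0.9782) and the basement membrane collagen Col4a1 (r = 0.978). These values describe 8 libraries that fall into a low and a high cluster of lines. Kcnj3 was at 10.6 to 14.7 normalized counts in WT and Ezh2 KO and at 54.2 to 73.8 in the other lines.

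Among the anterior Hoxa genes, Hoxa3 was called higher in Ezh1/2 dKO (3.75 ± 0.82, limma adjusted p = 0.0512) and in Ezh2 Y726D (3.43 ± 0.82, limma adjusted p = 0.0796). It was at 0 and 0.963 normalized counts in WT, at 14.8 and 21.3 in Ezh1/2 dKO and at 25 and 7.83 in Ezh2 Y726D libraries. Hoxa3, too, passed the filter only through the lines in which it was high. Beyond the cluster, Skap2, Snx10, Hibadh, Tax1bp1 and Jazf1 were tested and 0 of these 5 neighbours were called in the 3 comparisons with WT. Evx1, the neighbour next to Hoxa13, was below the filter, with 0 to 13.4 normalized counts.

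Of 12 tested posterior Hoxb, Hoxc and Hoxd genes, 5 were called higher in Ezh1/2 dKO (3.63% of all genes) and 5 in Ezh2 Y726D (1.66%). The medians over the 12 were 3.01 and 2.43. The called genes were Hoxd13 (4.86 and 4.93), Hoxb7 (4.29 and 3.69), Hoxd8 (3.75 and 3.12), Hoxd10 (3.78 and 2.97) and Hoxc10 (2.85 and 3.42). Hoxd13, Hoxb7, Hoxd8 and Hoxd10 passed the filter only through these 2 lines. The counts and medians are thus no like match for all genes. Hoxd13, the HoxD counterpart of Hoxa13, was at 23.1 to 33.8 normalized counts in the 2 lines and at 0 in WT and Ezh2 KO libraries. Of 10 tested HOX cofactors and CDX activators of Hox genes, 2 rose in Ezh2 KO (0.0937% of all genes). In Ezh1/2 dKO 2 rose (3.63%) and in Ezh2 Y726D 1 (1.66%). Meis1, which binds DNA with posterior HOX proteins, rose in each line, by 1.96, 2.73 and 1.84, and thus also in the line in which the Hoxa members stayed low. Cdx4, an activator of Hox genes in the embryo, rose in Ezh1/2 dKO (2.56), and Meis2 in Ezh2 KO (1.36). Cdx2 was not called against WT. It was at 70.7 and 9.63 normalized counts in WT and at 33 and 440 in Ezh2 Y726D libraries, which thus lay far apart. Of 12 tested PRC2 genes, only Ezh1 and Ezh2 were called, both lower where deleted, and of 8 Hox activators and H3K27 demethylases, including Kmt2a and Kdm6a, 0 were called.

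Some markers of other cell types moved in the same lines. Primitive endoderm markers summed to 450 to 538 normalized counts in WT, 375 to 678 in Ezh2 KO, 1338 to 1342 in Ezh1/2 dKO and 1018 to 1768 in Ezh2 Y726D libraries. Col4a1 (718 and 954) and Lama1 (237 and 757) made up most of the Ezh2 Y726D sums. Col4a1, Gata4 and Sox7 lay above WT there, while Lama1, Dab2, Gata6 and Pdgfra overlapped WT. Sox17 and Foxa2 were at 0 in both Ezh2 Y726D libraries, so most of this list did not follow the sum in that line. Of 6 tested, 3 rose in Ezh1/2 dKO (Gata4, Dab2 and Col4a1) and 1 in Ezh2 Y726D (Col4a1). Beside this count and those below, 3.63% of all genes were called higher in Ezh1/2 dKO and 1.66% in Ezh2 Y726D. Of 6 tested trophectoderm markers, 3 rose in each line (Krt8, Krt18 and Gata3), and of 7 tested mesoderm markers 0 rose in Ezh1/2 dKO and 1 in Ezh2 Y726D (Meox1, 3.46). Trophectoderm markers summed to 356 to 419 in WT, 539 to 608 in Ezh2 KO and 687 to 968 in the 2 lines. Mesoderm markers summed to 58.6 to 96.0 in WT and Ezh2 KO, 130 to 174 in Ezh1/2 dKO, and 152 and 348 in Ezh2 Y726D libraries. The 348 was Ezh2 Y726D replicate 2, with T at 51.5, Eomes at 111 and Kdr at 95.1. Replicate 1 had 5.35, 43.7 and 37.4, while Tbx6 and Foxf1 were lower in replicate 2. The high end of this range thus rests on 1 library. Of 3 tested neural markers 0 were called in the comparisons with WT, and 1 was called higher in Ezh1/2 dKO than in Ezh2 KO (3.52% of all genes). Markers of fibroblasts, which keep Hox expression in the adult, summed to 17.8 to 34.6 in Ezh1/2 dKO and 9.81 to 21.3 in Ezh2 Y726D, against 4.81 to 5.34 in WT and 3.14 to 4.84 in Ezh2 KO libraries. None of these 6 genes passed the filter, so 0 were tested. The part of such cells in the levels of the Hoxa genes was not tested.

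SUZ12 peaks were spread over the locus in WT cells. The ChIP-seq lists give the place of each peak with its fold enrichment and −log10 p against background, from 1 library per line and target, so the comparisons below concern where peaks were called and no difference was tested. The depth behind the lists is unknown. In WT, 18 SUZ12 peaks covered 41795 bp (63.0% of the locus), and in Ezh2 KO 16 peaks covered 21391 bp (32.2%). All 6 members had a peak within 5 kb of a start site in both lines, as did 17.1% and 4.86% of the 17367 genes placed on the genome. The highest peak lay over Hoxa10 in both lines, chr6:52181557-52185603 in WT (−log10 p 141, 32.0-fold) and chr6:52181715-52185570 in Ezh2 KO (66.9, 18.5-fold). It was number 35 of 5404 SUZ12 peaks in WT and number 8 of 1578 in Ezh2 KO, so SUZ12 at Hoxa10 was among the top peaks of either list.

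A single SUZ12 peak of 579 bp (0.872% of the locus) was called in Ezh1/2 dKO cells, chr6:52184232-52184810, with a −log10 p of 12.6 and a 6.12-fold enrichment. It lay over a coding exon of Hoxa10, 128 bases from an annotated start, at the sequence shown first above, and within the stretch of the highest WT peak. Hoxa9 and Hoxa10, 2 of 6 members, had this peak within 5 kb, beside 1.17% of all genes. No peak of Ezh1/2 dKO with a −log10 p of at least 20 lay in the locus.

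In Ezh2 Y726D cells 11 SUZ12 peaks covered 6700 bp (10.1%), near 5 of 6 members (12.2% of all genes). Hoxa11 was the exception, with the nearest peak 6063 bases from its start. The highest again lay over Hoxa10, chr6:52183928-52184905, with a −log10 p of 17.6 and a 7.58-fold enrichment, number 954 of 3366, and it contained the whole Ezh1/2 dKO peak. In Ezh2 R685C cells 12 peaks covered 55528 bp (83.6%), near all 6 members (9.79% of all genes), with a highest −log10 p of 108. The share of each gene covered by SUZ12 peaks was 50.3% to 100% in WT, 22.4% to 87.0% in Ezh2 KO, 0% to 13.9% in Ezh2 Y726D and 67.2% to 100% in Ezh2 R685C cells, with Hoxa13 the lowest in WT, Ezh2 KO and Ezh2 R685C.

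**Figure D3:**
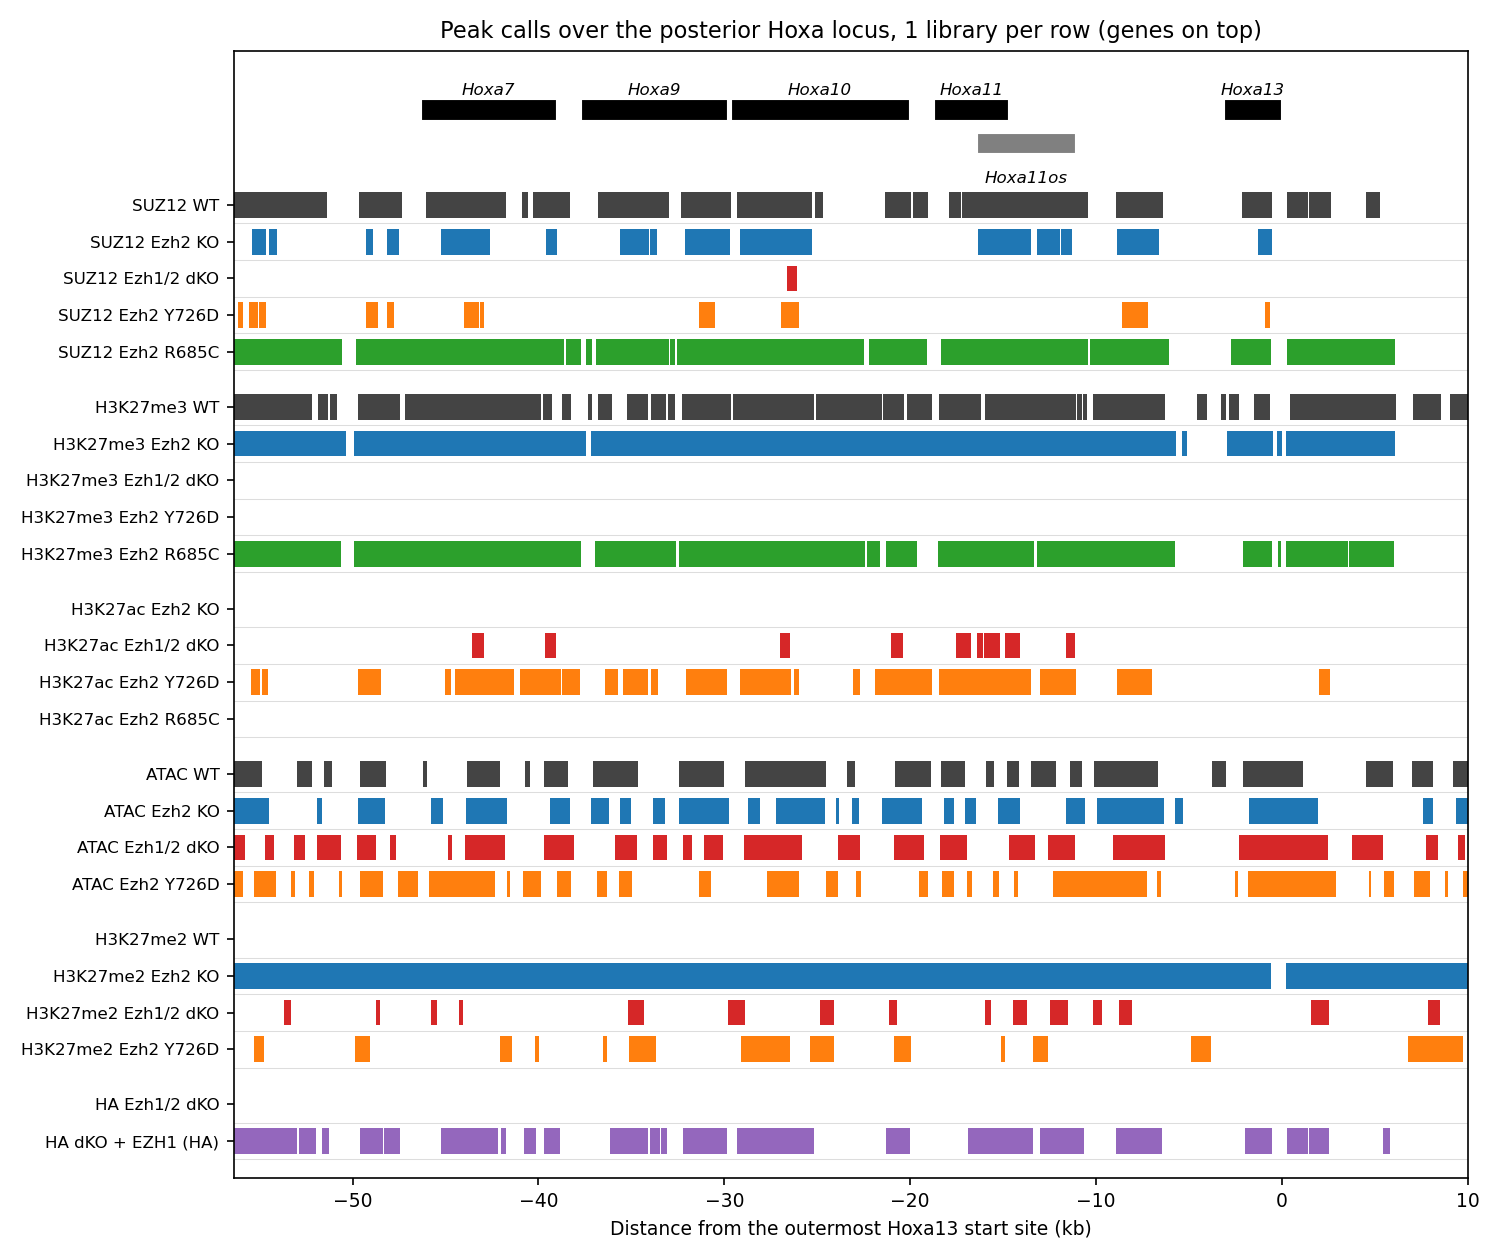
Peaks called over the posterior Hoxa locus by target and line, 1 library per row, as boxes at their distance in kb from the outermost start site of Hoxa13, with the genes on top. H3K27me3 spans the locus in WT, Ezh2 KO and Ezh2 R685C, and H3K27ac peaks stand in the Ezh1/2 dKO and Ezh2 Y726D rows, with empty rows in Ezh2 KO and Ezh2 R685C.

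H3K27me3 blanketed the locus in WT, Ezh2 KO and Ezh2 R685C cells and was not called in Ezh1/2 dKO and Ezh2 Y726D cells. It covered 54133 bp in 29 peaks in WT (81.5%), 58926 bp in 7 peaks in Ezh2 KO (88.8%) and 54806 bp in 12 peaks in Ezh2 R685C (82.6%). All 6 members had a peak within 5 kb in the 3 lines, as did 22.0%, 17.1% and 28.1% of all genes. In Ezh2 KO a single peak of 31522 bp, chr6:52173677-52205198, ran from Hoxa9 past Hoxa11os, and a peak over Hoxa7, chr6:52160932-52173442, was number 7 of 8956 (−log10 p 529). In WT the highest −log10 p was 35.1 (12.5-fold) and the longest peak 7337 bp. The fold values of different libraries were not scaled to each other here, so the lines cannot be ranked by them. Without an active methyltransferase (Ezh1/2 dKO and Ezh2 Y726D), 0 of 6 members had a peak, beside 0.115% and 1.38% of all genes. The Ezh2 Y726D list held 3862 peaks, and the nearest to a start of a member was 90288 bases from Hoxa13.

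Dimethylated H3K27 showed another pattern. In Ezh2 KO 2 broad regions covered 65574 bp (98.8%) of the locus. One of them, chr6:52096760-52210307, was 113548 bp long and reached beyond the anterior Hoxa genes, with a 3.88-fold enrichment, and the other was number 339 of 194708 regions by −log10 p. In WT 0 regions lay in the locus and 0 of 6 members had one within 5 kb, while 77.1% of all genes did. In Ezh2 KO 6 of 6 members had one, against 51.0% of all genes. The Ezh1/2 dKO and Ezh2 Y726D lists had 15 and 13 regions that covered 13.3% and 20.8%, with a −log10 p of at most 1.58 and 1.69, and 6 of 6 members had a region nearby in each line, as did 86.2% and 87.5% of all genes. Regions of such low −log10 p fill much of these lists, which cover 639 and 628 Mb. Monomethylated H3K27 was listed near 0 of 6 members in WT (74.9% of all genes), 1 in Ezh2 KO (57.1%) and 5 in Ezh1/2 dKO (66.1%), with a −log10 p of at most 1.51. The Ezh2 Y726D list of this mark holds no region on chromosome 6 and was not used for the locus.

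H3K27ac was called at the locus in Ezh1/2 dKO and Ezh2 Y726D cells, the lines in which the genes were transcribed. RNA of Ezh2 R685C cells was not analysed here. In Ezh2 KO and Ezh2 R685C, 0 of 6 members had a peak within 5 kb, while 49.0% and 59.1% of all genes did. The Ezh2 R685C list was the longest with 41185 peaks. The Ezh1/2 dKO list had 9 peaks that covered 5727 bp (8.63%), near 5 of 6 members (37.1% of all genes), and in Ezh2 Y726D 19 peaks covered 29297 bp (44.1%), near 6 of 6 (60.4% of all genes). These lists differ in length, with 17618 peaks in Ezh1/2 dKO and 40829 in Ezh2 Y726D. H3K27ac of WT cells was not analysed here.

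In Ezh2 Y726D, H3K27ac peaks covered 92.4% of Hoxa11, 90.3% of Hoxa11os, 74.8% of Hoxa7, 58.4% of Hoxa9 and 54.8% of Hoxa10. Those of Ezh1/2 dKO covered 54.4%, 45.6%, 16.4%, 0% and 12.5% of the same genes, so Hoxa9 had transcripts but its nearest peak was 2795 bases from a start site. The top peak of Ezh2 Y726D, chr6:52192418-52197352 over Hoxa11 and the start of Hoxa11os, had a −log10 p of 47.5 and an 11.3-fold enrichment. That of Ezh1/2 dKO, chr6:52189836-52190492 in Hoxa10, had 19.4 and 7.63-fold.

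All 9 Ezh1/2 dKO peaks were overlapped by Ezh2 Y726D peaks, over 5727 of their 5727 bp, and 3 of the 9 summits had an Ezh2 Y726D summit within 150 bases. The closest pair was at Hoxa7, with the summit at position 52171565 in Ezh1/2 dKO and 52171569 in Ezh2 Y726D, 4 bases apart, inside the CG-dense sequence shown second above. The other pairs lay 19 bases apart at Hoxa11 and 129 bases apart at Hoxa10. Hoxa13 itself held no H3K27ac peak in any of the 4 lines. The nearest peak was 1987 bases from its start in Ezh2 Y726D and 11029 in Ezh1/2 dKO. Its upstream sequence, shown last above, is the most CG-dense of the 3.

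**Figure D4:**
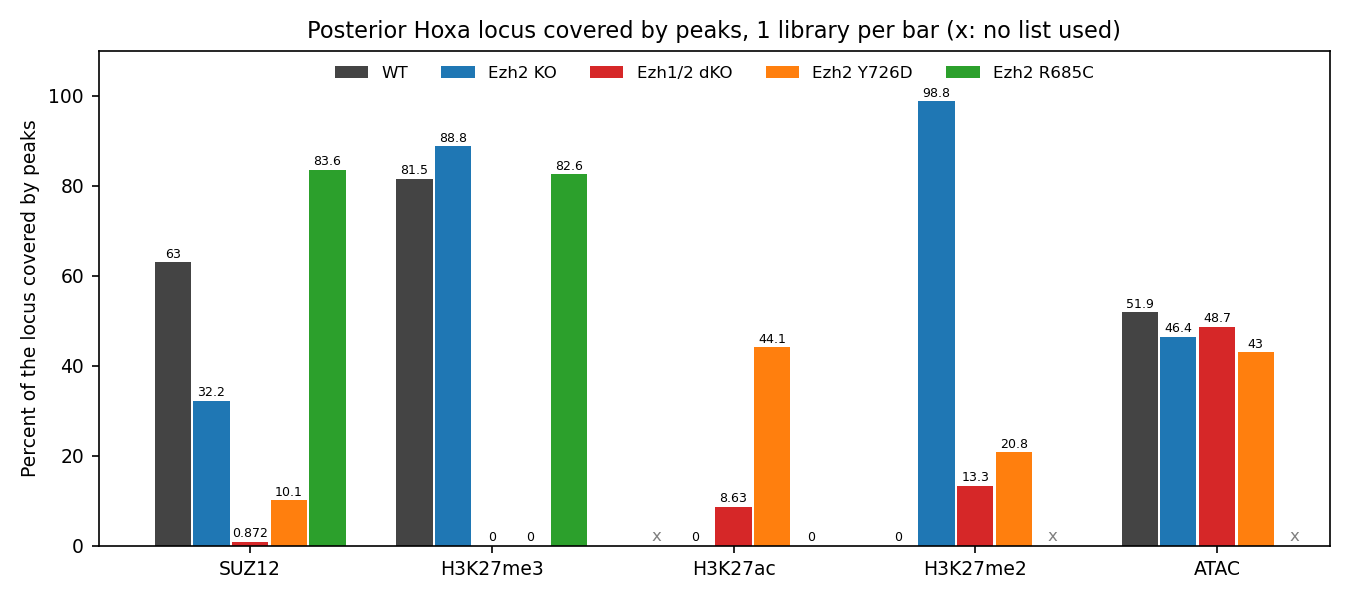
Percent of the 66385 bp locus covered by peaks or regions, by target and line, with 1 library per bar, bars from 0 and a cross where no list was used. H3K27me3 covers 81.5% to 88.8% in 3 lines and 0% in Ezh1/2 dKO and Ezh2 Y726D, and H3K27ac covers 8.63% and 44.1% in those 2 lines.

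Of 15 posterior Hoxb, Hoxc and Hoxd genes, 8 had an H3K27ac peak within 5 kb in Ezh1/2 dKO (37.1% of all genes) and 13 in Ezh2 Y726D (60.4%). In Ezh2 KO 2 had one (49.0% of all genes) and in Ezh2 R685C 1 (59.1%). SUZ12 was near 15 of the 15 in WT (17.1% of all genes), 13 in Ezh2 R685C (9.79%), 10 in Ezh2 Y726D (12.2%), 7 in Ezh2 KO (4.86%) and 1 in Ezh1/2 dKO (1.17%).

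ATAC-seq regions, which mark accessible DNA, covered 51.9% of the locus in WT, 48.7% in Ezh1/2 dKO, 46.4% in Ezh2 KO and 43.0% in Ezh2 Y726D cells, with 31 regions in Ezh2 Y726D and 24 in each other line. All 6 members had a region within 5 kb in every line, as did 99.0% to 99.1% of all genes, so their count says nothing about the members. The −log10 p of the regions was 1.03 to 2.83, and the lists hold 752012 to 798241 regions over 604 to 645 Mb, so they include regions barely above background.

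To see where EZH1 itself binds, HA-tagged human EZH1 was expressed in Ezh1/2 dKO cells. Its HA list held 22 peaks in the locus, covering 34735 bp (52.3%) and near 6 of 6 members (13.1% of all genes). The peaks covered 45.2% of Hoxa13 to 93.2% of Hoxa11os. The HA list of Ezh1/2 dKO cells without the tagged protein had 0 peaks in the locus and near 0 of 6 members, beside 3.64% of all genes.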

How the data were processed

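RNA-seq (poly-A, SMART-seq2) covered 8 libraries of mouse ESCs. For the expression table the authors used TopHat (mm9), PICARD for duplicates, HTSeq-count on RefSeq genes (intersection-nonempty mode, strand ignored), and DESeq2. Its deposited values are a signal, the normalized count: reads of a gene divided by the library's size factor. From their steps, 100% of the values came out as whole reads (tolerance 0.05), which gave the 3604123 to 5181553 reads per library. For ChIP-seq and ATAC-seq the authors aligned reads to mm9 with Bowtie, kept unique alignments, removed duplicates and called peaks with MACS2 per sample. The deposited peak lists give positions, fold enrichment (a ratio to background) and −log10 p. The HA lists give positions. SUZ12, H3K27me3 and H3K27ac peaks were used here at a −log10 p of at least 10, the cut-off given in the study's reporting summary. The broad lists (ATAC, H3K27me1 and H3K27me2) start at a −log10 p of 1 to 1.01, as the p cut-off in the study's methods gives. Their other settings are not given in the sources used here. Spike-in scaling played no part in the peak lists.

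Normalized counts were tested with limma 3.58.1 in R 4.3.3 (log2 of the value plus a pseudocount of 1, trend, 8 libraries in 1 fit, mean of at least 5) and called at a Benjamini-Hochberg adjusted p under 0.1, over all genes, with a log2 change of 1 or more in either direction. edgeR 4.0.16 and DESeq2 1.42.0 ran on the recovered reads as alternatives, and they called the same 5 members against WT in Ezh1/2 dKO and Ezh2 Y726D. Ratios of reads have exact 95% intervals, and the floor is 3 reads per line. Both cover counting error only, and PCR copies are not independent molecules. Genes were placed with the GENCODE annotation of mm9, 16570 by symbol and 797 by a synonym. Hoxa11os is Hoxa11as there. Peaks counted near a gene within 5 kb of any start. Python 3.11.15, numpy 2.4.6, pandas 2.3.3, scipy 1.17.1 and matplotlib 3.10.9 were used, and the calculations were tested on simulated data.

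The members and lists were chosen with earlier results of these data known. Named genes are the 6 members, the genes called against WT in fixed lists (at most 4 per list by size of change; Hoxc10 was added to these after its values were seen), Ezh1, Ezh2, the neighbours and the 5 most alike genes. The SUZ12 and H3K27me3 samples labelled with Y726D and no Ezh1 KO were taken as the Ezh2 Y726D line of the study. A second copy of the count table and the authors' comparison tables, which hold log2 fold changes and p-values, were not used. RING1B, H2AK119ub, WT H3K27ac, input, the EZH2 rescue lines and the DMSO and MG132 samples were not analysed here. Some results are not reported here.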

Additional observations from a re-analysis of the deposited data

Results flagged for a closer look

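The effects of 2 lines against WT differed from that of Ezh2 KO for each of the 5 tested members, by the contrast between the lines in the limma fit. In Ezh1/2 dKO the change was larger than in Ezh2 KO by 3.10 ± 0.49 on the log2 scale for Hoxa7 (SE, adjusted p = 0.0154), 5.31 ± 0.70 for Hoxa9 (limma adjusted p = 0.00713), 6.50 ± 0.83 for Hoxa10 (limma adjusted p = 0.00635), 3.69 ± 0.69 for Hoxa11 (limma adjusted p = 0.0307) and 6.33 ± 0.57 for Hoxa11os (limma adjusted p = 0.00197). In Ezh2 Y726D it was larger than in Ezh2 KO by 4.16 for Hoxa7, 6.94 for Hoxa9, 7.52 for Hoxa10, 5.03 for Hoxa11 and 7.44 for Hoxa11os, with the same standard errors (limma adjusted p from 0.000652 to 0.00956). Hoxa11os had 0 reads in Ezh2 KO, so its fitted values depend on the pseudocount. Against the floor of 3 reads it was at least 54.2-fold higher in Ezh1/2 dKO and at least 114-fold higher in Ezh2 Y726D. Both contrasts share the Ezh2 KO libraries. They are the direct comparisons with Ezh2 KO given above, in which 3.52% and 2.31% of all genes were called higher. The limit set by the filter holds here too for all members but Hoxa7.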

How the results depend on the processing

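All 5 tested members kept their calls in Ezh1/2 dKO and Ezh2 Y726D against WT under other pseudocounts (0.5 and 5), filters, scalings and tests and in fits of 2 lines. Leaving out 1 library gave 0 to 5 called members in Ezh1/2 dKO against WT and 3 to 5 against Ezh2 KO, where quantile normalization called 4 and left out Hoxa11 (limma adjusted p = 0.148). In Ezh2 Y726D against Ezh1/2 dKO, where 0 were called, 1 was with a pseudocount of 5 (Hoxa9), 1 in a fit of those 2 lines (Hoxa10) and 2 with DESeq2. Of 168 log2 fold changes refitted for single members, 155 had the same direction and call, 10 lost the call, each without 1 Ezh1/2 dKO library, and 3 turned: Ezh2 KO against WT for Hoxa7 (−0.04 without Ezh2 KO replicate 1) and Hoxa10 (−0.56 without WT replicate 2, −0.94 without Ezh2 KO replicate 1). Leaving out 1 library, these ran from −0.04 to 0.71 for Hoxa7 and from −0.94 to 1.70 for Hoxa10. The labels do not say whether replicate numbers pair the samples. Deviations of same-numbered libraries correlated between −0.41 and −0.07 with WT and between 0.22 and 0.29 among the mutant lines. These values cannot decide it, so the fit was also run with a replicate block. With the replicate block, 5 members were called in Ezh1/2 dKO and in Ezh2 Y726D against WT, 0 in Ezh2 KO, and 0 in Ezh2 Y726D against Ezh1/2 dKO. Over all genes, calls in Ezh2 Y726D against WT went from 230 to 20 in a fit of the 2 lines, and in Ezh1/2 dKO from 503 to 290 with quantile normalization. At a −log10 p of at least 20, SUZ12 was near 0 members and covered 0 bp in Ezh1/2 dKO and in Ezh2 Y726D, H3K27ac was near 0 members and covered 0 bp in Ezh1/2 dKO and covered 19483 bp in Ezh2 Y726D. At a −log10 p of at least 5, ATAC regions were near 0 members and covered 0 bp in each of the 4 lines. With a window of 1 kb, SUZ12 was near 1 member in Ezh1/2 dKO. With lists cut to the 317 strongest SUZ12 peaks, coverage was 16737 bp in WT, 9349 bp in Ezh2 KO and 0 bp in Ezh2 Y726D. With the 53 strongest H3K27me3 peaks it was 0 bp in WT and in Ezh2 R685C. The cause was not tested. Depth limits Hoxa13 and the changes of members in Ezh2 KO.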
